A study of Mus musculus with 4 samples.

Results

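The 10 genes described here encode the NF-kB subunits, proteins of the IkB family and the enzyme A20: Rela, Rel, Relb, Nfkb1, Nfkb2, Nfkbia, Nfkbie, Nfkbiz, Bcl3 and Tnfaip3. Their accessible regions were taken as every region whose nearest gene, as the authors assigned it, bore one of these names. This gave 57 of 80929 regions, and each member had at least 1 region. All 57 lay on the chromosome of the gene they were named for. The assay was ATAC-seq, which reads open chromatin through the cuts of a transposase, on RAW264.7 cells, an established mouse macrophage line. The groups were CuNZ@Gel (2 libraries) and Gel (2 libraries), both of RAW264.7 cells, and the labels give a culture time of 48 h. The treatment text names CuNZ@Gel for every library, so the Gel group is known as such from its library titles alone, and the labels do not expand either name. The labels do not say that replicates were grown apart, and p-values therefore rest on the spread of these 4 libraries, which can be technical.

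NF-kB transcription factors are dimers of RelA, c-Rel, RelB, p50 and p52, encoded by Rela, Rel, Relb, Nfkb1 and Nfkb2. In resting cells IkB proteins such as those from Nfkbia and Nfkbie hold the dimers in the cytoplasm, and inflammatory signals in macrophages cause these inhibitors to be degraded. The released dimers enter the nucleus and switch on genes that include their own inhibitors, among them Nfkbia and Tnfaip3, which encodes the ubiquitin-editing enzyme A20, and Nfkbiz and Bcl3 encode nuclear proteins of the IkB family that modify what the dimers do on DNA.

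Of the 10 members, 7 had promoter windows in RefSeq (GRCm38.p6), each of 300 bases from 250 before to 50 after a gene start, and 4 of the 7 held a kappa-B match. The 4 windows printed here are shown because each carries that match, the sequence that NF-kB dimers bind, in a gene of the NF-kB family or its feedback. Sequences run 5′ to 3′ on the gene's strand, with capitals marking matches to kappa-B (GGG, any 2 bases, then TTTCC), AP-1 (TGANTCA) or the PU.1 core (GGAAGT), each searched on both strands.
Nfkbia (chr12:55492598-55492897, minus strand): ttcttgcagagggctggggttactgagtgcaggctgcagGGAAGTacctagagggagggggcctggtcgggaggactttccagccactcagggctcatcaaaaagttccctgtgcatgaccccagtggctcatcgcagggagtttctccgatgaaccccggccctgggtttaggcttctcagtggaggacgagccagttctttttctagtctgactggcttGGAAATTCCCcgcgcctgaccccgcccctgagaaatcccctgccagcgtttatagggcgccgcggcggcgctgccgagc
Rel (chr11:23770920-23771219, minus strand): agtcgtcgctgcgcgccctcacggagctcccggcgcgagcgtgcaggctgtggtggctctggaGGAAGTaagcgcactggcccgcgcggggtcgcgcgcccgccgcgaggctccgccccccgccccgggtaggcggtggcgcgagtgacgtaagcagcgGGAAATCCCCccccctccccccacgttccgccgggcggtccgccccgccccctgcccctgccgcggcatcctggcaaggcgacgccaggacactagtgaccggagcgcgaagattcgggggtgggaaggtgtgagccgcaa
Tnfaip3 (chr10:19015361-19015660, minus strand): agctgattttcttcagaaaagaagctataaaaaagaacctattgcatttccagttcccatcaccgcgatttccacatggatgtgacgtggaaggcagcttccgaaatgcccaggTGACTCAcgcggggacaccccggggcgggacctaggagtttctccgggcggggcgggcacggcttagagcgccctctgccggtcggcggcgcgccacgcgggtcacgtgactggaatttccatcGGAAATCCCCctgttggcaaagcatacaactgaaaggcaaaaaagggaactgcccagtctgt
Nfkb2 (chr19:46304487-46304786, plus strand): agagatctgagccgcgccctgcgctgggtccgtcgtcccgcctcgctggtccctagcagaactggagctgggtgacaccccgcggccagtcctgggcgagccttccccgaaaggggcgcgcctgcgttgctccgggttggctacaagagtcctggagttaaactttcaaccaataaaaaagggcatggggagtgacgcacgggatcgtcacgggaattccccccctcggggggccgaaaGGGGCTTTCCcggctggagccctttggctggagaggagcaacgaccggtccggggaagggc
The kappa-B match began at -29 from the gene start in Nfkbia, as GGAAATTCCC on the strand printed. It stood at -91 in Rel and at -12 in Tnfaip3, in both as GGAAATCCCC, and at -11 in this Nfkb2 window, as GGGGCTTTCC. The other two Nfkb2 windows overlap and share 1 further match, GGGACTTTCC. Over all 32851 promoter windows, 1.63% held a kappa-B match, 7.81% an AP-1 match and 23.8% a PU.1 core match. The members had 10 windows, of which 6 held a kappa-B match (the overlapping Nfkb2 pair included), 3 an AP-1 match and 3 a PU.1 core match. Of the 7 members, 3 held an AP-1 match (Tnfaip3, Nfkb2 and Nfkbie) and 3 a PU.1 core match (Nfkbia, Rel and Bcl3). A match describes letters in these windows only. The accessible regions below are in GRCm39, and the windows were not placed relative to them.

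The libraries differed in reads within regions, with 7440951 and 10236690 for CuNZ@Gel replicates 1 and 2, against 18843984 and 17915210 for Gel replicates 1 and 2. These counts are not sequencing depth. The scaling factors worked out from the deposited values were 1.11 and 1.10 for CuNZ@Gel, against 0.910 and 0.902 for Gel. The background pileup is the genome-wide level that the authors' peak folds imply, and reads outside peaks were not counted for it. It was 1.168 and 1.20 reads for CuNZ@Gel, against 1.00 and 0.962 for Gel. Region reads per unit of this level came to 6369022 and 8525240 for CuNZ@Gel, against 18783327 and 18628466 for Gel. Values below are in RPM, the reads of a region on the authors' scale. The deposited values were taken as log2(RPM + 1), which no header states. Of 12 macrophage marker genes, 10 had a region (Fcgr3 and Tyrobp did not), with summed values of 927 and 951 RPM in CuNZ@Gel, against 1220.2 and 1238 RPM in Gel, and 7 of these genes fell while 2 rose (36.1% and 20.5% of all genes). Fibroblast markers (3 of 6 with a region) summed to 43.8 and 41.9 RPM in CuNZ@Gel, against 40.4 and 38.7 RPM in Gel. T cell markers (6 of 6) summed to 195 and 194 RPM in CuNZ@Gel, against 188 and 190.0 RPM in Gel. B cell markers (4 of 5) summed to 27.2 and 21.6 RPM in CuNZ@Gel, against 20.9 and 18.9 RPM in Gel. Epithelial markers (3 of 4) summed to 12.4 and 17.5 RPM in CuNZ@Gel, against 12.1 and 12.9 RPM in Gel. Of these other markers, 1 fibroblast, 2 T cell and 1 epithelial gene rose, and 3 T cell and 1 epithelial gene fell. No region was listed for Col1a2, Dcn, Twist1, Cd79a and Krt18. The part of read numbers in regions, background pileup and these markers in the results below was not tested.

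On the deposited scale, accessibility near most of these genes was lower in CuNZ@Gel. The summed value over a gene's regions fell for 7 of the 10 members (Relb, Nfkbiz, Rel, Rela, Nfkbie, Nfkbia and Bcl3), rose for 0 (0 also at an unadjusted p under 0.05, by limma and by limma with voom) and did not pass the test for 3 (Nfkb1, Nfkb2 and Tnfaip3). The test was limma on log2(RPM + 1) with Benjamini-Hochberg adjustment over 25900 genes and a threshold of 0.05. Over all genes 36.1% were called lower and 20.5% higher. The median member gene changed by -0.35 in log2, against -0.10 for all genes. CuNZ@Gel libraries stood below both Gel libraries in 7 member genes (45.9% of all genes) and above them in 1, Nfkb2 (30.9%), and overlapped in 2. Leaving out CuNZ@Gel replicate 2 brings in a further call, for Nfkb1, given with that gene.

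Single regions moved both ways. Of the 56 tested member regions, 19 fell (33.9%, where 21.9% of all 77014 tested regions did), 15 rose (26.8%, where 21.2% of all did) and 22 did not pass the test. The regions that fell changed by -1.16 to -0.26 and those that rose by 0.33 to 1.58 in log2. The 2 groups of libraries did not overlap in 46 member regions, CuNZ@Gel standing above Gel in 18 and below Gel in 28, while over all regions CuNZ@Gel stood above in 33.7% and below in 34.6%. At 4 members (Rel, Nfkb1, Nfkbia and Tnfaip3) regions were called in both directions. Of the 56, 49 were at the minimum reads in all 4 libraries. Another 2, at Nfkbiz (chr16:55686638-55686837) and Tnfaip3 (chr10:18863594-18863774), reached it in CuNZ@Gel libraries only. Both are among the 15 called higher, a direction fixed by the way they passed the filter, and 13 remain without them. The 21.2% over all regions was not recomputed without such regions. The remaining 5 of the 56 reached the minimum in libraries of both groups but not in all 4. Of the 13 called higher, 10 were at the minimum in all 4 libraries. The others, all at Nfkb1, fell short of it in a Gel library. The count of 4 members called both ways leaves out the 2 regions whose direction the filter fixed. One Tnfaip3 region, chr10:18841130-18841439, was too low to test, with 18 and 4 reads in CuNZ@Gel, against 4 and 0 reads in Gel.

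**Figure D1:**
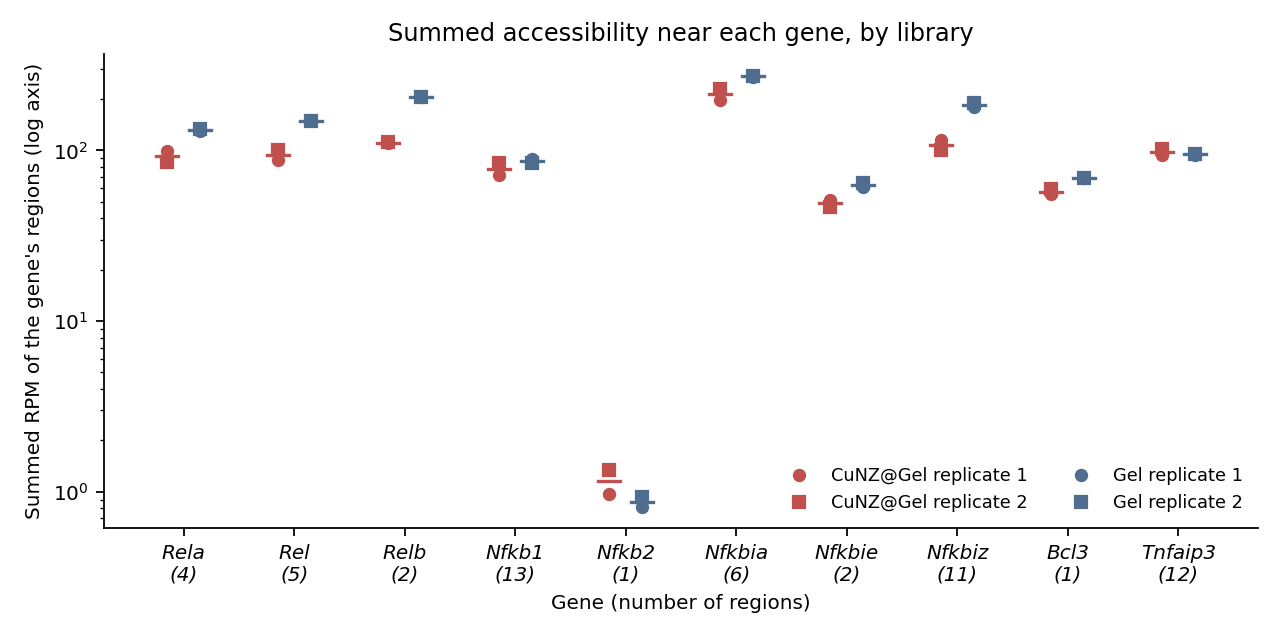
Summed RPM over the regions of each gene (log axis) for each library, CuNZ@Gel in red left of Gel in blue, with a bar at the group mean. Relb stands apart most clearly, at 110.1 and 111 RPM in CuNZ@Gel and 205 and 206 RPM in Gel, while the groups of Nfkb1 and Tnfaip3 lie close together and Nfkb2 lies near 1 RPM.

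Direction depended on how libraries were scaled, which bears on every value below. The change was lower the stronger a region was, across all regions, so 2 further scalings were computed. With that trend removed by cyclic loess, 2 member gene values were called lower (Nfkb1 and Nfkbiz; 15.9% of all genes) and 3 higher (Bcl3, Tnfaip3 and Nfkbia; 20.2% of all genes). On the background-pileup scale, reads are taken per unit of the genome-wide level given above, which is not a measure of reads outside peaks. There limma called 9 member gene values lower (75.5% of all genes) and 0 higher (2.77% of all genes, and 0 members at an unadjusted p under 0.05). The median of all genes was itself -1.06. The median member gene was then at -1.40. Scaled to library totals, 4 members were called lower (18.7% of all genes) and 1, Tnfaip3, higher (34.3%). Among the tested member regions, cyclic loess gave 13 lower (13.8% of all regions) and 14 higher (18.8%). The background scale gave 35 lower (60.6% of all) and 3 higher (4.85%), and library totals 11 lower (11.9%) and 17 higher (30.1%). Which scaling holds was not tested. In bulk libraries, fewer cells with an open region and less opening per cell cannot be told apart.

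**Figure D2:**
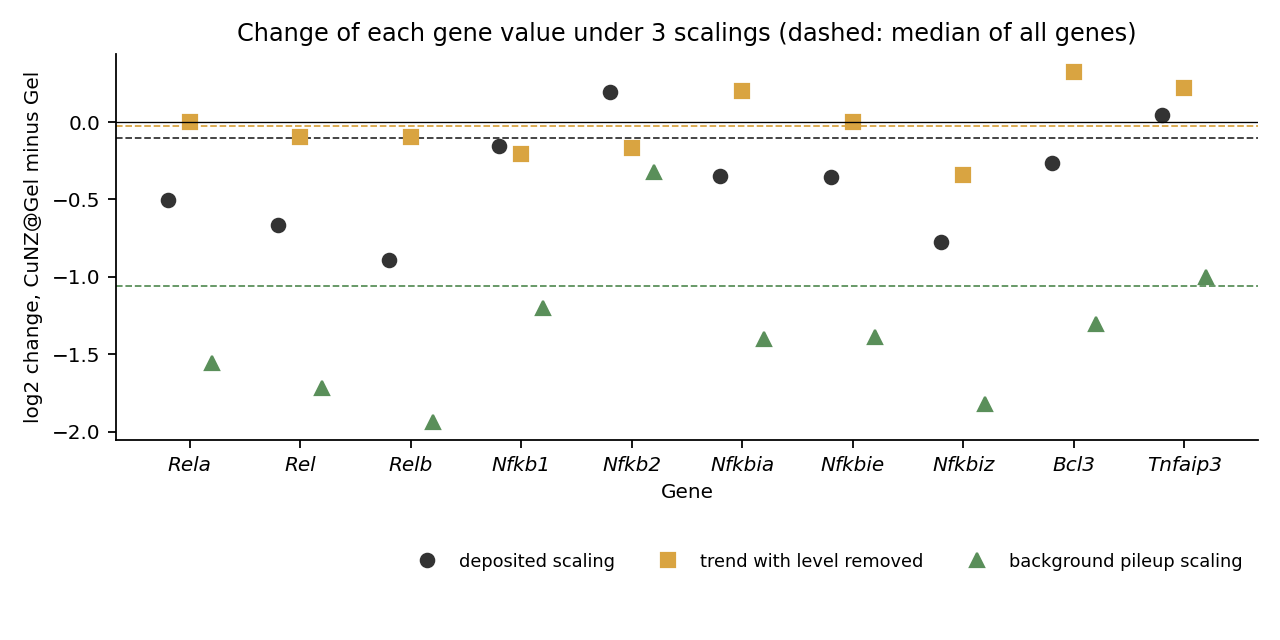
Log2 change of each gene value, CuNZ@Gel minus Gel, under 3 scalings, with a dashed line at the median of all genes for each. Nfkbia and Bcl3 lie below 0 on the deposited scale (-0.35 and -0.26) and above 0 with the trend removed (0.20 and 0.33), and all 10 genes lie below 0 on the background scale.

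Among the subunits, Relb, whose product partners p52 in the non-canonical pathway, showed the lowest change on the deposited and background scales, though not with the trend removed. Its 2 regions summed to 110.1 and 111 RPM in CuNZ@Gel, against 205 and 206 RPM in Gel. The groups stood far apart relative to their replicates, with means of 111 ± 0.814 RPM in CuNZ@Gel and 206 ± 0.754 RPM in Gel (SD, n = 2 each). The change was -0.89 ± 0.05 in log2 (SE, limma adjusted p = 5.63e-11), and -0.10 with the trend removed (adjusted p = 0.144). Almost all of it lay in 1 region of 1244 bases, chr7:19362271-19363514, which held 100.5 and 101.0 RPM in CuNZ@Gel, against 193 and 195 RPM in Gel. That region fell by 0.94 in log2 (SE 0.06, limma adjusted p = 4.56e-18). Its other region, chr7:19352866-19353573, had a change of -0.27 that did not pass the test (limma adjusted p = 0.184).

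Rel, the gene of c-Rel, had 87.3 and 100.4 RPM in CuNZ@Gel, against 150.04 and 149 RPM in Gel over 5 regions. Both CuNZ@Gel libraries were below both Gel libraries, and the value fell by 0.67 in log2 (SE 0.06, limma adjusted p = 4.30e-08). With the trend removed the change was -0.09 (adjusted p = 0.241), and a mean over the region log2 values gave 0.23 (adjusted p = 0.177). The strongest region, chr11:23719747-23721753, held 65.5 and 73.9 RPM in CuNZ@Gel, against 129 and 129 RPM in Gel. It fell by 0.88 in log2 (limma adjusted p = 1.13e-14). A weak region, chr11:23691366-23691638, moved the other way, at 3.52 and 4.26 RPM in CuNZ@Gel and 0.875 and 0.866 RPM in Gel. It rose by 1.38 ± 0.28 in log2 (SE, limma adjusted p = 5.14e-05), and was also called higher with the trend removed (1.13) and on the background scale (0.71), and voom put it at 2.15. The 3 other regions of Rel had changes of -0.27, 0.40 and 0.52 that did not pass the test.

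Rela, which encodes the RelA subunit of the classical dimer, had 98.9 and 85.8 RPM in CuNZ@Gel, against 129 and 133 RPM in Gel over 4 regions. The groups did not overlap, and the value fell by 0.50 in log2 (SE 0.07, limma adjusted p = 2.45e-06). With the trend removed the change was 0.0024 (adjusted p = 0.981), and a mean over the region log2 values gave -0.25 (adjusted p = 0.162). The strongest region, chr19:5698527-5699952, held 55.6 and 49.1 RPM in CuNZ@Gel, against 74.0 and 71.1 RPM in Gel. It fell by 0.46 in log2 on the deposited scale (limma adjusted p = 8.20e-06) and stood at 0.12 with the trend removed (adjusted p = 0.283). The region with the largest change, chr19:5686757-5688016, held 37.7 and 33.1 RPM in CuNZ@Gel, against 50.6 and 59.0 RPM in Gel, and fell by 0.62 (limma adjusted p = 6.93e-07). The 2 weak regions did not pass the test.

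Nfkb1, the gene of p105 and its product p50, had the most regions, 13 over 153.9 kb. Its summed value was 71.3 and 84.3 RPM in CuNZ@Gel, against 89.0 and 83.9 RPM in Gel. The groups overlapped, and the change of -0.15 ± 0.08 in log2 did not pass the test (limma adjusted p = 0.0962). It passed with the trend removed (-0.20, adjusted p = 0.0367), and without CuNZ@Gel replicate 2 (-0.27, adjusted p = 0.0078). Without CuNZ@Gel replicate 1 it was -0.035 (adjusted p = 0.707), and the sign turned on library totals (0.13, adjusted p = 0.169) and with a mean over the region log2 values (0.14, adjusted p = 0.421). Behind that sum, 5 regions rose and 5 fell. The strongest, chr3:135333887-135334905, held 16.0 and 15.7 RPM in CuNZ@Gel, against 11.3 and 10.6 RPM in Gel, and both CuNZ@Gel libraries lay above both Gel libraries. It rose by 0.50 ± 0.15 in log2 (SE, limma adjusted p = 0.00485) and by 0.59 with the trend removed, but was -0.48 on the background scale (adjusted p = 0.0949) and lost its call without Gel replicate 2 (0.46, adjusted p = 0.0725). The region with the largest change, chr3:135376292-135376586, held 2.55 and 2.67 RPM in CuNZ@Gel, against 0.234 and 0.805 RPM in Gel. It rose by 1.27 ± 0.31 (SE, limma adjusted p = 0.000665) and was also called higher on the background scale (0.73). In Gel it had 4 and 13 reads, short of the filter minimum in Gel replicate 1. The size of its change depended on the pseudocount, at 2.299 with 0.1 and 2.54 with voom. The 5 regions that fell changed by -0.91 to -0.45, and all 10 called regions kept their direction and call with the trend removed.

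Nfkb2, the gene of p100 and its product p52, had 1 weak region, chr19:46272566-46272791, at 8 and 15 reads in CuNZ@Gel, against 14 and 15 reads in Gel. That was 0.970 and 1.33 RPM in CuNZ@Gel, against 0.816 and 0.928 RPM in Gel, and the change of 0.20 ± 0.32 did not pass the test (limma adjusted p = 0.629). A difference of this size was not detected. A strong region 19728 bases away, chr19:46292520-46294216, was assigned to the long non-coding RNA gene 4833438C02Rik, which the RefSeq gene table (GRCm38.p6) places inside the span of Nfkb2, and it was chosen after its values were seen. It held 74.1 and 76.9 RPM in CuNZ@Gel, against 139.8 and 147 RPM in Gel, and fell by 0.92 ± 0.07 (SE, limma adjusted p = 5.53e-16). With the trend removed its change was -0.16 and the call was lost (adjusted p = 0.0605). It is not counted among the members.

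Of the cytoplasmic inhibitors, Nfkbia, the gene of IkBα and a feedback target of NF-kB, had regions called in both directions. On the deposited scale 3 were higher and 2 lower, and on the background scale 0 were higher and 4 lower. Its 6 regions summed to 197 and 230 RPM in CuNZ@Gel, against 269 and 274 RPM in Gel. The groups did not overlap, and the value fell by 0.35 ± 0.05 in log2 (SE, limma adjusted p = 1.94e-05), yet it stood at 0.20 and was called higher with the trend removed (adjusted p = 0.00141), and at -0.06 on library totals (adjusted p = 0.308). A mean over the region log2 values gave -0.02 (adjusted p = 0.876). The strongest region, chr12:55538518-55539663, held 62.2 and 73.2 RPM in CuNZ@Gel, against 152 and 152 RPM in Gel. It fell by 1.16 ± 0.07 (SE, limma adjusted p = 1.64e-18), and by 0.41 once the trend was removed (adjusted p = 7.57e-07). The region with the largest change among the others, chr12:55527445-55528275, held 16.7 and 21.0 RPM in CuNZ@Gel, against 9.80 and 7.49 RPM in Gel. It rose by 1.04 ± 0.16 (limma adjusted p = 2.67e-07) and stood at 1.12 with the trend removed, but at 0.07 on the background scale (adjusted p = 0.829). Another 2 regions are named after their values were seen. The region chr12:55512009-55514101, the widest of the 57 at 2093 bases, held 72.5 and 75.8 RPM in CuNZ@Gel, against 49.1 and 53.5 RPM in Gel and rose by 0.52 (limma adjusted p = 6.59e-07). It was the only member region of the strongest decile to do so, at 1.11 with the trend removed and -0.52 on the background scale (adjusted p = 0.0839). The region chr12:55535541-55536043 held 19.5 and 28.3 RPM in CuNZ@Gel, against 34.6 and 32.1 RPM in Gel, and fell by 0.49 (limma adjusted p = 0.00100), a call lost with the trend removed (-0.16, adjusted p = 0.320). The remaining 2 regions changed by 0.33, which passed the test but was called lower on the background scale (-0.67, adjusted p = 0.0183), and by -0.38, which did not pass.

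Nfkbie, the gene of IkBε, had 51.5 and 46.3 RPM in CuNZ@Gel, against 61.1 and 64.2 RPM in Gel over 2 regions. The groups did not overlap, and the value fell by 0.35 ± 0.08 in log2 (SE, limma adjusted p = 0.00112), with a change of 0.0027 once the trend was removed (adjusted p = 0.984) and -0.07 on library totals (adjusted p = 0.491). The strongest region, chr17:45865813-45867023, held 35.7 and 31.5 RPM in CuNZ@Gel, against 43.2 and 45.7 RPM in Gel, and fell by 0.40 (limma adjusted p = 0.000914). It stood at 0.03 with the trend removed. The other region had a change of -0.23 that did not pass the test (limma adjusted p = 0.178).

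Nfkbiz, the gene of the atypical IkB protein IkBζ, was called lower in CuNZ@Gel on the deposited, background and library-total scales and with the trend removed. Its 11 regions summed to 115 and 99.97 RPM in CuNZ@Gel, against 179 and 189.5 RPM in Gel. The groups did not overlap, and the value fell by 0.77 ± 0.06 in log2 (SE, limma adjusted p = 4.55e-09), by 0.34 without the trend (adjusted p = 5.37e-05) and by 0.49 on library totals. A mean over the region log2 values gave -0.30 (adjusted p = 0.0704). The strongest region, chr16:55641393-55642992, held 59.3 and 50.8 RPM in CuNZ@Gel, against 100.1 and 105 RPM in Gel, and fell by 0.89 ± 0.08 (limma adjusted p = 2.46e-13). A region named after its values were seen, chr16:55658584-55659831, held 32.7 and 28.4 RPM in CuNZ@Gel, against 49.3 and 54.2 RPM in Gel, and fell by 0.74. The region with the largest change, chr16:55686638-55686837, was weak, at 8 and 17 reads in CuNZ@Gel, against 1 and 2 reads in Gel. It passed the filter through the CuNZ@Gel libraries alone, which fixes its direction, so no test is given. Its fitted change of 1.03 was 2.80 with a pseudocount of 0.1 and 3.50 with voom.

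Bcl3, the gene of an atypical IkB protein that binds p50 and p52 in the nucleus, had 1 region, chr7:19556706-19558537, so that its gene value and region are the same. It held 55.3 and 59.5 RPM in CuNZ@Gel, against 69.3 and 68.8 RPM in Gel. The groups did not overlap, and the gene value fell by 0.26 ± 0.08 (SE, limma adjusted p = 0.00537), although it was 0.33 and called higher with the trend removed (adjusted p = 0.00129) and 0.02 on library totals (adjusted p = 0.877). Among regions its adjusted p was 0.00668, and that call was lost without Gel replicate 1 (-0.26, adjusted p = 0.0817) and without Gel replicate 2 (-0.27, adjusted p = 0.0683).

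Tnfaip3, the gene of the ubiquitin-editing enzyme A20, which shuts off signalling upstream of NF-kB, had 12 regions over 90.9 kb. They summed to 93.8 and 102 RPM in CuNZ@Gel, against 94.0 and 95.3 RPM in Gel. The groups overlapped, and the change of 0.05 ± 0.06 did not pass the test (limma adjusted p = 0.566). It was called higher with the trend removed (0.22, adjusted p = 0.00943) and on library totals (0.33, adjusted p = 0.000186), and lower on the background scale (-1.001, adjusted p = 0.000581). With a mean over the region log2 values it was 0.43 and called higher (limma adjusted p = 0.0215). As with Nfkbia, the strongest region went the other way from several weaker ones. The strongest, chr10:18890475-18891578, held 35.4 and 37.8 RPM in CuNZ@Gel, against 54.8 and 59.8 RPM in Gel, and fell by 0.63 ± 0.09 (limma adjusted p = 1.37e-07). Its change with the trend removed was -0.15 (adjusted p = 0.232). The region with the largest change of the 56 tested, chr10:18819045-18819600, held 7.40 and 14.0 RPM in CuNZ@Gel, against 3.27 and 2.29 RPM in Gel. It rose by 1.58 ± 0.23 (limma adjusted p = 7.66e-08), and by 0.72 on the background scale (adjusted p = 0.0141). Of the 11 tested regions 5 were called higher, including the one whose direction the filter fixed, and 2 lower. The weaker of these 2, chr10:18909495-18909908, changed by -0.65 (limma adjusted p = 0.0142) and is named after its values were seen. Another of the 5 called higher, chr10:18871243-18872491, was also chosen after its values were seen. It held 17.5 and 19.3 RPM in CuNZ@Gel, against 8.16 and 6.07 RPM in Gel, and rose by 1.27 (limma adjusted p = 5.91e-09). On the background scale it stood at 0.30 (limma adjusted p = 0.310). With the trend removed 4 Tnfaip3 regions were called higher and 2 lower, and on the background scale 1 higher and 5 lower.

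**Figure D3:**
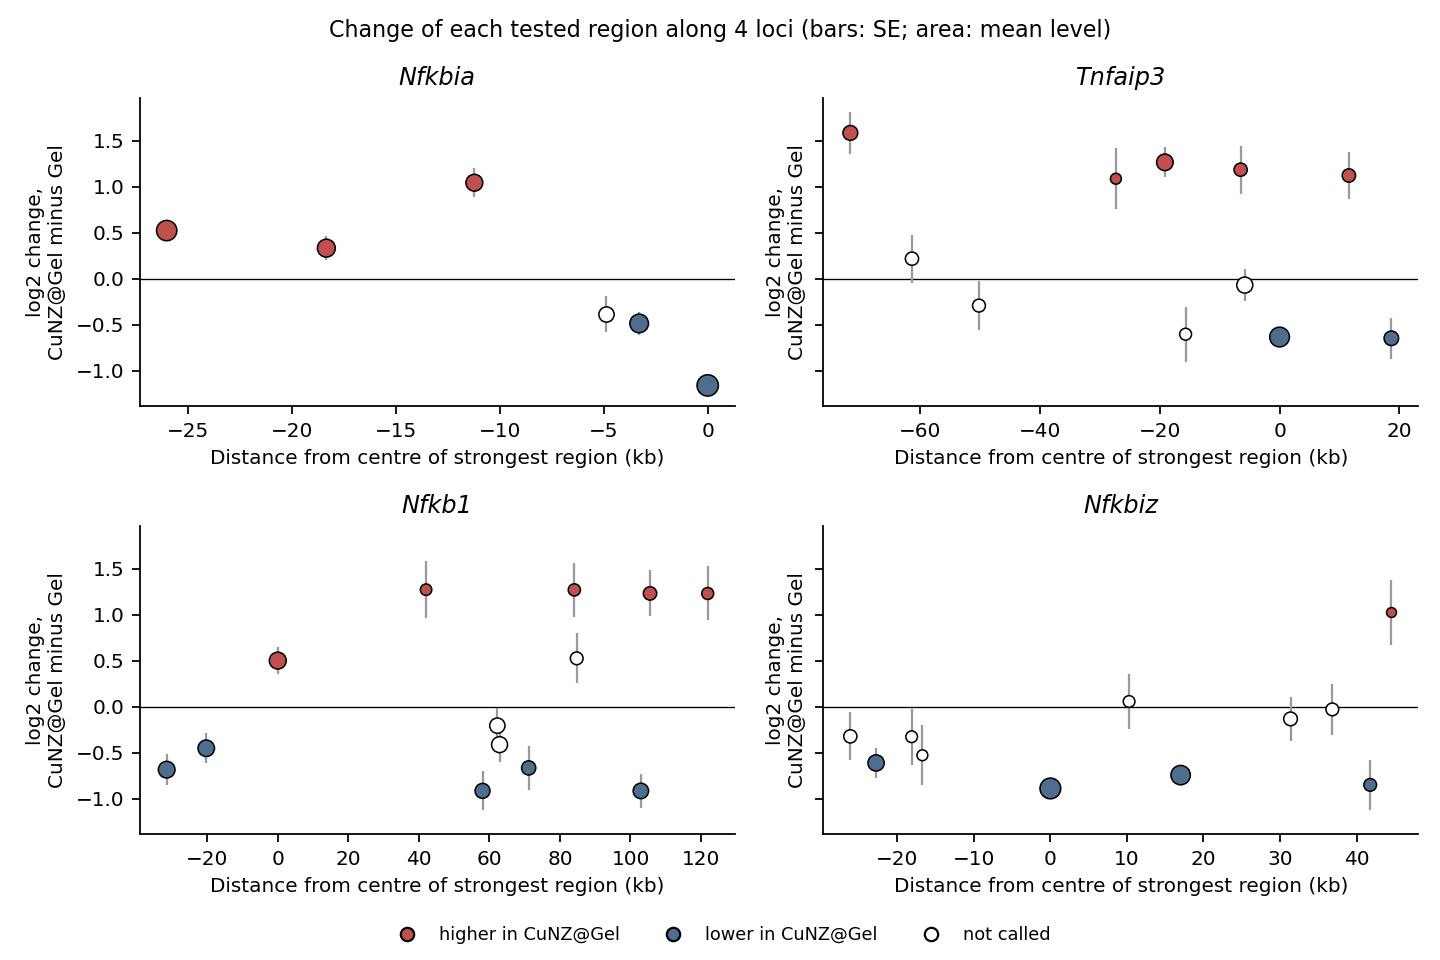
Log2 change of each tested region along 4 loci, by distance from the centre of the gene's strongest region in kilobases, with SE bars, red for called higher in CuNZ@Gel, blue for called lower and open for not called. The strongest regions of Nfkbia (-1.16) and Tnfaip3 (-0.63) lie below 0, with weaker called regions on both sides of 0. That of Nfkbiz lies at -0.89, and the strongest region of Nfkb1 lies at 0.50.

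The direction of a member region went with its level. Regions called lower had a median mean log2 value of 5.31 and a median width of 1104 bases, against 2.02 and 461 bases for those called higher. Of the 11 member regions in the strongest decile of all regions (mean log2 at or above 5.15), 10 fell and 1 rose, where 86.9% of all regions in that decile fell and 2.91% rose. With the trend removed, 3 of the 11 were called lower (19.9% of all regions in the decile) and 2 higher (18.7%). Among the 24 tested member regions in the weakest 4 deciles, 9 were called higher and 1 lower (24.9% and 2.43% of all regions there), and 7 were higher without the 2 regions fixed by the filter. The shares over all regions still hold such regions, so the count of 7 has no like share beside it. The median member region changed by -0.27, against -0.00 for all regions, and by -0.15 against -0.05 with the trend removed. Across both scalings, 24 member regions were called the same way (13 higher and 11 lower) and 1, Bcl3's, the opposite way.

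**Figure D4:**
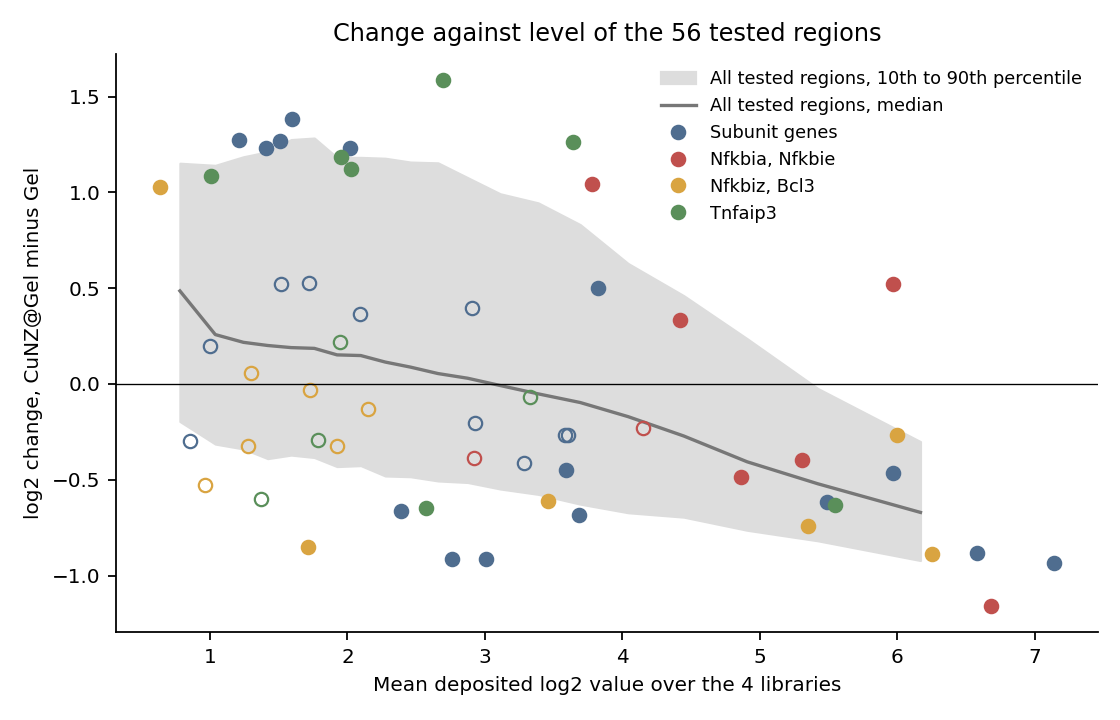
Log2 change, CuNZ@Gel minus Gel, of the 56 tested member regions against their mean deposited log2 value over 4 libraries, filled where called; the grey line and band give the median and the 10th to 90th percentile of all tested regions. The median change of all regions runs from 0.49 at the weak end to -0.67 at the strong end, and the Nfkbia region at 0.52 stands above the band at the right.

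The share of a gene's reads that lay in its strongest region is unchanged by a scaling factor common to a whole library. It is not free of the trend with level that cyclic loess removes, and shares were not computed with that trend removed. For Nfkbia the share was 31.6 and 31.9% in CuNZ@Gel, against 56.5 and 55.6% in Gel. For Tnfaip3 it was 37.7 and 37.1% in CuNZ@Gel, against 58.3 and 62.8% in Gel. Both pairs of CuNZ@Gel values lay well below the Gel values, beyond the 95% Wilson intervals, which cover counting error only. For Rel the share was 75.0 and 73.6% in CuNZ@Gel, against 86.3 and 86.7% in Gel. Nfkb1 went the other way, at 22.4 and 18.7% in CuNZ@Gel and 12.6 and 12.6% in Gel. Of the 8 members with more than 1 region, the CuNZ@Gel values lay below the Gel values in 6, above in 1 and overlapped in 1, Rela. Over the 17590 genes with more than 1 region and reads in every library, they lay below in 54.7% and above in 16.1%. With 2 libraries a group, an exact permutation test could not go below 0.333, so none is given, and the shares were chosen after values were seen.

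**Figure D5:**
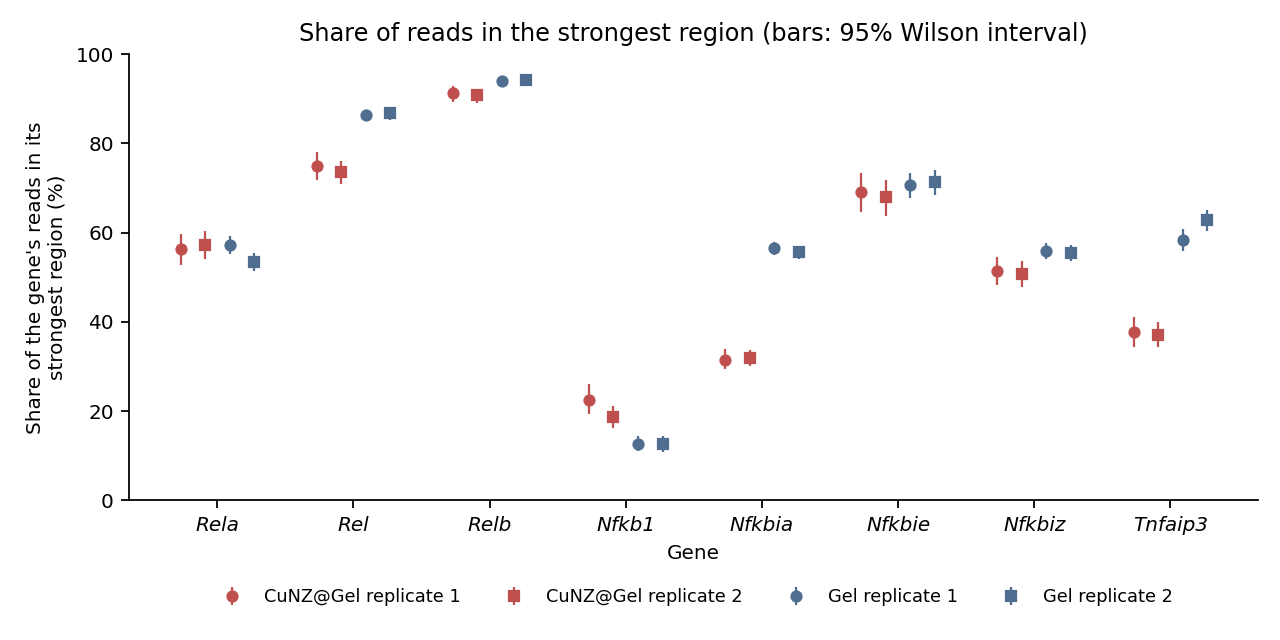
Share of each gene's reads in its strongest region, in percent, for each library, CuNZ@Gel in red left of Gel in blue, with 95% Wilson intervals. Nfkbia and Tnfaip3 separate the most (31.6 and 37.7% in CuNZ@Gel replicate 1, 56.5 and 58.3% in Gel replicate 1), and Rela overlaps.

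The authors called peaks per library, 42612 and 53273 in CuNZ@Gel, against 61757 and 59251 in Gel. Of the 57 member regions, 26 (45.6%, against 39.6% of all regions) had a peak in all 4 libraries, and of these 14 fell and 6 rose, where 42.1% of all tested regions of this class fell and 18.6% rose. Another 2 (3.51%, against 2.28% of all) had a peak in both CuNZ@Gel libraries and in neither Gel library, 1 at Nfkb1 (chr3:135456106-135456476) and 1 at Tnfaip3 (chr10:18884323-18884725), and both were called higher. Taking regions by a peak in 1 group only already selects on the difference, so no support is drawn from these calls. A further 5 (8.77%, against 11.0% of all) had a peak in both Gel libraries only, of which 1 at Nfkbiz (chr16:55683711-55684241) fell and 4 did not pass the test.

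Gene values of the wider pathway were counted in 4 lists, beside 36.1% lower and 20.5% higher over all genes. Among 20 other inhibitors of the pathway, 14 fell and 3 rose, with a median change of -0.53. Nkrf, an NF-kB repressing factor, fell by 0.98 in log2 (limma adjusted p = 0.000191), and Zc3h12a, the gene of the RNase Regnase-1, fell by 0.56 but stood at -0.07 with the trend removed (adjusted p = 0.174). Nlrc5, described as an inhibitor of NF-kB signalling, rose by 0.24 and was called lower on the background scale (-0.81). Among 16 genes of IkB kinases, their upstream kinases and the ligase that marks IkB, 12 fell and 2 rose, with a median of -0.39, Skp1, a subunit of that ligase, falling by 0.72 and Ikbke, the gene of the kinase IKKε, rising by 0.32, though called lower on the background scale (-0.73). Fbxw11, a substrate-binding part of that ligase and the list's highest gene, fell by 0.38. Of 13 genes for linear ubiquitin and signalling adaptors, 11 were tested, and Rnf31 and Sharpin had no region. Among the 11, 9 fell, including Bcl10 (-0.77) and Malt1 (-0.71), partners in 1 signalling complex. With the trend removed both calls were lost, at -0.08 for Bcl10 (adjusted p = 0.290) and 0.014 for Malt1 (adjusted p = 0.849). Of 30 tested NF-kB target genes of stimulated macrophages, 16 fell and 5 rose, with a median of -0.37. Acod1, which makes itaconate, rose by 1.53 ± 0.15 (SE, limma adjusted p = 5.39e-08) and was called higher on the background scale too (0.56). Cd83, an activation marker, fell by 1.08 ± 0.04 (SE, limma adjusted p = 4.61e-13). With the trend removed, where 15.9% of all genes were lower and 20.2% higher, the counts were 6 lower and 3 higher for the other inhibitors, 4 and 3 for the kinases, 2 and 2 for the adaptors, and 7 and 8 for the targets. On the background scale all 20, 16 and 11 genes of the first 3 lists were called lower, with 27 of the 30 targets, where 75.5% of all genes were.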

How the data were processed

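ATAC-seq was measured in 4 libraries of RAW264.7 cells, 2 CuNZ@Gel and 2 Gel. Reads were handled with MACS2 2.2.8, Picard 2.27.5, fastp 0.23.1, SAMtools 1.17 and Bowtie2 2.3.4.3 on GRCm39, per the submitters' processing notes. The authors deposited a log2 value per region and library, whose low values are whole reads within 0.1 of a read under log2(RPM + 1), with scaling factors that differ from library totals. The authors' peak lists give a fold enrichment ratio, a score, and −log10 p-values and q-values per peak, called per library. Those p-values and q-values, deposited by the authors, were used only to describe peaks.

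Region coordinates were rebuilt by merging the 4 peak lists. Values were tested with limma 3.58.1 in R 4.3.3 with an intensity trend, two-sided, over 77014 of 80929 regions (at least 10 reads at median depth in at least 2 libraries and at least 15 in all). Gene values are log2 of summed RPM plus a pseudocount of 1. The members, gene lists and tests were chosen with earlier results of these data known. All members are named, each with its strongest region and that of largest other change. From each list the largest called rise, the largest called fall and the highest gene are named. Replicates differed by more than counting noise (chi-square per degree of freedom 2.35 in CuNZ@Gel and 2.48 in Gel). Same-numbered libraries did not deviate together. No GRCm39 annotation was used, so positions in exons or introns were not analysed here. Alternatives tried were library totals, median-of-ratios factors, cyclic loess, background pileup, no and stricter filters, another pseudocount, voom, a mean of region values, a replicate block, and leaving out each library.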

Additional observations from a re-analysis of the deposited data

How the results depend on the processing

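Against 15 member regions called higher and 19 lower, the background pileup scale gave 3 higher and 35 lower, library totals 11 lower and a stricter filter 5 higher. Against 0 gene values higher and 7 lower, library totals gave 1 and 4, cyclic loess 3 and 2, and the mean of region log2 values 1 and 3. The median region change of -0.27 was 0.0055 on library totals and -1.04 on the background scale. Leaving out 1 library gave 12 to 15 regions higher, 14 to 19 lower, 7 to 8 gene values lower, 0 higher, and a median of -0.25 to -0.22. Turned directions are listed only for results called on the deposited scale or under the alternative. Sign changes called under neither, as for the Nfkb1 and Nfkb2 gene values, are left out. Directions turned under cyclic loess for the gene values of Rela (0.0024), Nfkbia (0.20), Nfkbie (0.0027) and Bcl3 (0.33), and for the strongest regions of Rela (0.12), Nfkbie (0.034) and Bcl3 (0.33). They turned on library totals for Bcl3 (0.016), on the background scale for the Tnfaip3 gene value (-1.001) and the strongest Nfkb1 region (-0.48), and with the mean of region values for Rel (0.23). The cause was not tested. With the replicate number as a block, 15 regions were called higher and 20 lower, and 8 gene values lower, Nfkb1 being the one gained (adjusted p = 0.0374). The labels give only shared numbers, and deviations of same-numbered libraries correlated at r = 0.05 across regions. Median-of-ratios factors, no filter, a pseudocount of 0.1 and voom kept the direction and call of all 28 single results. The size of weak regions moved: the largest-change regions of Nfkbiz, Nfkb1 and Rel (1.03, 1.27 and 1.38) stood at 2.80, 2.299 and 2.03 with the pseudocount of 0.1, and at 3.50, 2.54 and 2.15 with voom. The stricter filter left 22 of the 28. Read numbers limit the weak regions: Nfkb2 rested on 8 to 15 reads a library.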
